A study of Mus musculus with 9 samples.

Results

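Principal cells of the corpus are taken here as the barcodes of the 3 corpus libraries that met a rule on detected genes, and 9677 of the 13778 corpus barcodes within the limits on genes, UMIs and mitochondrial transcripts met it (70.2%). A UMI is a molecular tag that counts 1 captured transcript. The limits, which asked for 300 to 4000 detected genes, at most 20000 UMIs and under 50% mitochondrial UMIs, had kept 13778 of 14948 corpus barcodes, and 42087 of 44869 in the whole series. The rule then removed 3427 barcodes with more than 2 of 15 genes that mark basal, clear, endothelial, stromal, immune, ciliated, dividing or sperm cells, 362 with 20% or more of their UMIs from globins, and 312 with fewer than 2 of Defb22, Bsph2, Pate1, Wfdc13 and Car4. All libraries came from untreated wild-type C57BL/6 mice (C57BL/6J in the study's methods). Segments of the epididymis were dissected and pooled across 5 mice per library, from 1 pool of 42-day-old mice (P42) and 2 pools of adult 56-day-old mice (P56, replicates 1 and 2), and dissociated cells were sequenced after capture on a microwell chip. The members were 2466 of 4562 barcodes at P42 (54.1%, 95% exact interval 52.6 to 55.5), 3659 of 4726 in P56 replicate 1 (77.4%, 76.2 to 78.6) and 3552 of 4490 in P56 replicate 2 (79.1%, 77.9 to 80.3). These intervals cover counting error only.

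The epididymis is a long coiled duct in which sperm mature, passing in turn through the caput (head), corpus (body) and cauda (tail). Principal cells are its most abundant epithelial cells. They absorb and acidify luminal fluid and secrete segment-specific sets of proteins, among them beta-defensins, protease inhibitors, lipocalins and proteins that attach to the sperm surface. Under the androgen supplied by the testis each segment keeps its own secretory repertoire.

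Promoters are printed for 4 corpus genes on which the results turn. Defb22, a beta-defensin, and Pate1, a secreted Ly6-type protein, are rule markers, and Spint4 and Spint5, Kunitz-type protease inhibitors whose start sites lie 16.8 kb apart, were the genes whose joint variation set a small number of members apart. Each line runs from 250 bases before to 50 bases after the annotated start (RefSeq, GRCm38.p6), 5′ to 3′ on the gene's strand.
Spint4 (chr2:164698251-164698550, + strand): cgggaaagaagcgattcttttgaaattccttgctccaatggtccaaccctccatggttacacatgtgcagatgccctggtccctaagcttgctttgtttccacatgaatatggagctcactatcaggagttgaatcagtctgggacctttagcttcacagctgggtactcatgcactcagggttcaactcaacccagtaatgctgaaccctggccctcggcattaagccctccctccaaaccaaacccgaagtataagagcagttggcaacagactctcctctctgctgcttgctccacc
Spint5 (chr2:164715055-164715354, + strand): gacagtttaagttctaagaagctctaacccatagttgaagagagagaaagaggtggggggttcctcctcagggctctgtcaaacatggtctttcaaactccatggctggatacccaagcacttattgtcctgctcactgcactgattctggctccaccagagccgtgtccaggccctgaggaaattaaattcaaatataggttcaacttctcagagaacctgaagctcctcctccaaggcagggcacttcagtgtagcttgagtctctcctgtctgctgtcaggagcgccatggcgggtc
Defb22 (chr2:152490089-152490388, − strand): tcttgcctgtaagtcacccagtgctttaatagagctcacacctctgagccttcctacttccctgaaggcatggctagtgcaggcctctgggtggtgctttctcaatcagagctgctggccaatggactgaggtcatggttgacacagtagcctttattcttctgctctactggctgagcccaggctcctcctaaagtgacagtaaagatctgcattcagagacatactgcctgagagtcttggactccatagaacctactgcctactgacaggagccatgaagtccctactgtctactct
Pate1 (chr9:35687322-35687621, − strand): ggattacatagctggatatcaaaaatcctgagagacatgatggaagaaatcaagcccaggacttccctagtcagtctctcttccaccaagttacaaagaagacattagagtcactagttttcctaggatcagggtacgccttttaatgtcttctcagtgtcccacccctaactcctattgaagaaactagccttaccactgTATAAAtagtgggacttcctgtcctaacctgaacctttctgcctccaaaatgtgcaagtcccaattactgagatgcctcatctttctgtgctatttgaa
Capitals mark the TATAAA box, which was found once, in Pate1. TATAAA occurred on either strand in 13.6% of the 32851 promoters of the table in 8.42% of the 15419 promoters of genes tested below, and in 15.5% of the 388 promoters of genes higher in the corpus than in both other segments. AGAACA, a steroid hormone response half-site, occurred on either strand in none of the 4 windows, in 19.0% of all promoters, in 13.6% of those of tested genes and in 17.5% of those 388, so that whether the 388 lay above or below the background turned on the background taken. Of 23 genes of the WAP and Kunitz inhibitor families with a position, 19 lay within 569.67 kb of chromosome 2 (164176325 to 164745994), and 11 of 42 beta-defensin genes lay within 163.999 kb of the same chromosome (152459055 to 152623053).

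The members held 51176566 UMIs, with medians of 3052, 4587 and 4766 UMIs per cell at P42 and in P56 replicates 1 and 2. The same order of libraries is kept in every list of 3 values below. The defining genes were detected in most members, and often in corpus barcodes with 3 or more markers of 1 other cell type too. Those barcodes were grouped by their other markers alone, whether or not they met the rule, and 36 of 55 endothelial and 1713 of 2329 fibroblast barcodes were members themselves. Defb22 had a UMI in 82.7% to 95.2% of members (median 3052 to 4766 UMIs) and in 62.5% to 90.9% of the 11 to 24 endothelial barcodes per library (median 4080 to 5294 UMIs), cells that should lack it. With each cell thinned to 1000 UMIs, which kept 2449, 3622 and 3550 members and all endothelial barcodes, these ranges were 55.5% to 77.8% and 29.2% to 55%. Car4 was the least often detected, in 55.6% to 72.2% of members and 29.2% to 60% of endothelial barcodes. The summed share of UMIs from the 5 rule markers was 0.968%, 1.54% and 1.27% in members, 0.273%, 0.540% and 0.676% in endothelial barcodes, and 0.806%, 1.19% and 1.14% in fibroblast barcodes. In P56 replicate 2 it was higher than in members in macrophage (1.34%) and sperm barcodes (1.505%), as it was at P42 in the 12 sperm barcodes (1.06%). The term principal cells below means the barcodes that met the rule. Crisp1, Gpx3, Adam7 and Aqp9, listed as markers of principal cells of any segment, were all found in the members. Cftr, an anion channel on the same list, was near 0 in the corpus, with 0.151, 0.218 and 0.229 counts per 1000000 UMIs after the scaling used below. The list was not even along the duct. At least 3 of its 5 genes were found in 85.3%, 95.4% and 97.6% of members, but in 24.8%, 25.5% and 35.5% of the caput principal cells compared below.

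At the edge of the rule, the 512 members with exactly 2 rule markers had a median of 2353.5 UMIs and took 0.285% of UMIs from the 5 markers, and the 265 barcodes with 1 marker, just outside, had 2052.0 UMIs and 0.183%. The 5719 members with all 5 markers (59.1%) took 1.56%. The 2912 members with 2 excluded genes took 1.14%, and the 1991 barcodes with 3, just outside, took 0.916%. Markers of other cell types were also carried by members. At least 3 of 5 markers of another cell type, red cells aside, were detected in 3183 members (32.9%), fibroblast markers in 2053 of them and those of clear and narrow cells in 815. The rule bounds these counts, since members hold at most 2 of the 15 excluded genes. Those include 3 clear and narrow markers, but only Lum of the fibroblast list. The 5 fibroblast markers, which encode collagens and other matrix proteins, reached 7440 counts per 1000000 UMIs (CPM) at P42 against 646 and 511 CPM in the P56 libraries. These sums over lists are not scaled between libraries, and with the scaling used below for single genes they were 5753, 713 and 604 CPM. Lum, itself an excluded gene of the rule, was the lowest of the 5 markers, with 68.6, 6.22 and 4.31 CPM unscaled. The 5 macrophage markers made up 667, 120 and 76.1 CPM, those of T and halo cells 131, 19.9 and 16.1 CPM, and the erythroid genes 14352, 1799 and 2778 CPM, with 3 or more of the latter in 5033 members. Ciliated-cell markers, 3 or more together, were found in 0 of 9677 members. No doublet caller was run, and the limits on genes and UMIs and the excluded genes were the only guard. Of the members, 15 shared a barcode sequence with a member of another library, at 7 barcodes.

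For comparison, 7254 caput and 6562 cauda principal cells were chosen by parallel rules with their own markers, and the P42 cauda gave only 509 of these. Of those 509, 505 carried 3 or more fibroblast markers (99.2%), at 24084 CPM unscaled, and 23.2% carried 3 or more macrophage markers. In the P56 cauda libraries 22.5% and 21.1% carried 3 fibroblast markers. In the caput the myoid list summed to 1985 to 2028 CPM unscaled, against 37.2 to 140 in the corpus, most of it from Actg2, with 1354, 2036 and 1858 CPM after scaling. UMIs were summed per library, so that a library and not a cell is the replicate. Levels are CPM of these sums after TMM scaling (trimmed mean of M-values), and UMIs count molecules, so that levels are not divided by gene length. Differences between segments are log2 fold changes ± SE from edgeR's quasi-likelihood test, fitted with the mouse pool as a blocking term. Calls needed an adjusted p (Benjamini-Hochberg, over 16958 genes) under 0.05 and a log2 fold of 1 or more in size. The caput and cauda comparisons share the corpus libraries, and where both differences are given, that against the caput comes first. The genes that chose the cells of any segment are described without a test. The genes Defb39, Defb20, Spint3, Pate4, Crisp4, Gpx5, Gstm3, Gstm4, Gstm6, Phgdh, Cth, Cycs, Slpi, Wfdc15a, Sec61a1, Ddit3, Herpud1, Defb18, Defb6, Lcn12, Gpx6, Wfdc3 and Pate3 were picked for description after their values were seen.

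The members spent a large part of their transcripts on secreted proteins and on mitochondrial RNA. The 15 genes of highest mean level took 27.6% of UMIs and the 100 highest took 48.3%. Of the 15, 6 were mitochondrial and 7 encoded secreted proteins or a surface peptide. Spink8, a Kazal-type protease inhibitor, was the highest nuclear gene with 12716, 32988 and 31669 CPM, followed by Cd52, a lipid-anchored glycopeptide that is passed to sperm, with 8395, 22566 and 25049.8 CPM. Crisp1, a cysteine-rich protein that binds sperm, stood at 6504, 20836 and 22092 CPM. In these genes the P42 library was the lowest of the corpus libraries and the P56 libraries lay close together. The beta-defensin Defb28 had 5431, 11299 and 10728 CPM, the secreted peroxidase Gpx3 3893, 7363 and 9199 CPM, and Wfdc10, a WAP-domain inhibitor, 3245, 7413 and 7099 CPM. Spink8, Defb28 and Gpx3 were higher than in the caput, by 2.44, 5.22 and 5.18 (adjusted p = 0.00119, 1.91e-05 and 4.17e-05). They differed from the cauda by 0.10, 0.02 and -0.50, which did not pass the test (adjusted p = 0.889, 0.982 and 0.406).

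Among the genes that chose the members, Wfdc13 was the highest, with 4127, 8264 and 6637 CPM against 60.7, 133 and 161 in the caput and 162, 621 and 425 in the cauda. Defb22 had 1267, 3359.8 and 3215 CPM in the corpus, 0.925, 2.76 and 12.1 in the caput and 0.828, 32.7 and 2.24 in the cauda. Pate1 had 1002, 2523 and 2305 CPM, and 1.49, 3.52 and 9.74 in the caput and 267, 428 and 452 in the cauda. Bsph2, a binder-of-sperm protein, had 774, 2288 and 2269 CPM against 2.7, 3.87 and 7.59 in the caput and 42.5, 342 and 218 in the cauda. Car4, a membrane carbonic anhydrase, had 329.5, 615 and 555 CPM against 2.28, 2.46 and 4.43 in the caput and 0.552, 19.2 and 1.86 in the cauda. The corpus libraries did not overlap those of the caput or cauda for any of the 5, and in the cauda Bsph2 and Pate1 stood well above their caput levels. These values restate the choice of the cells.

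**Figure D1:**
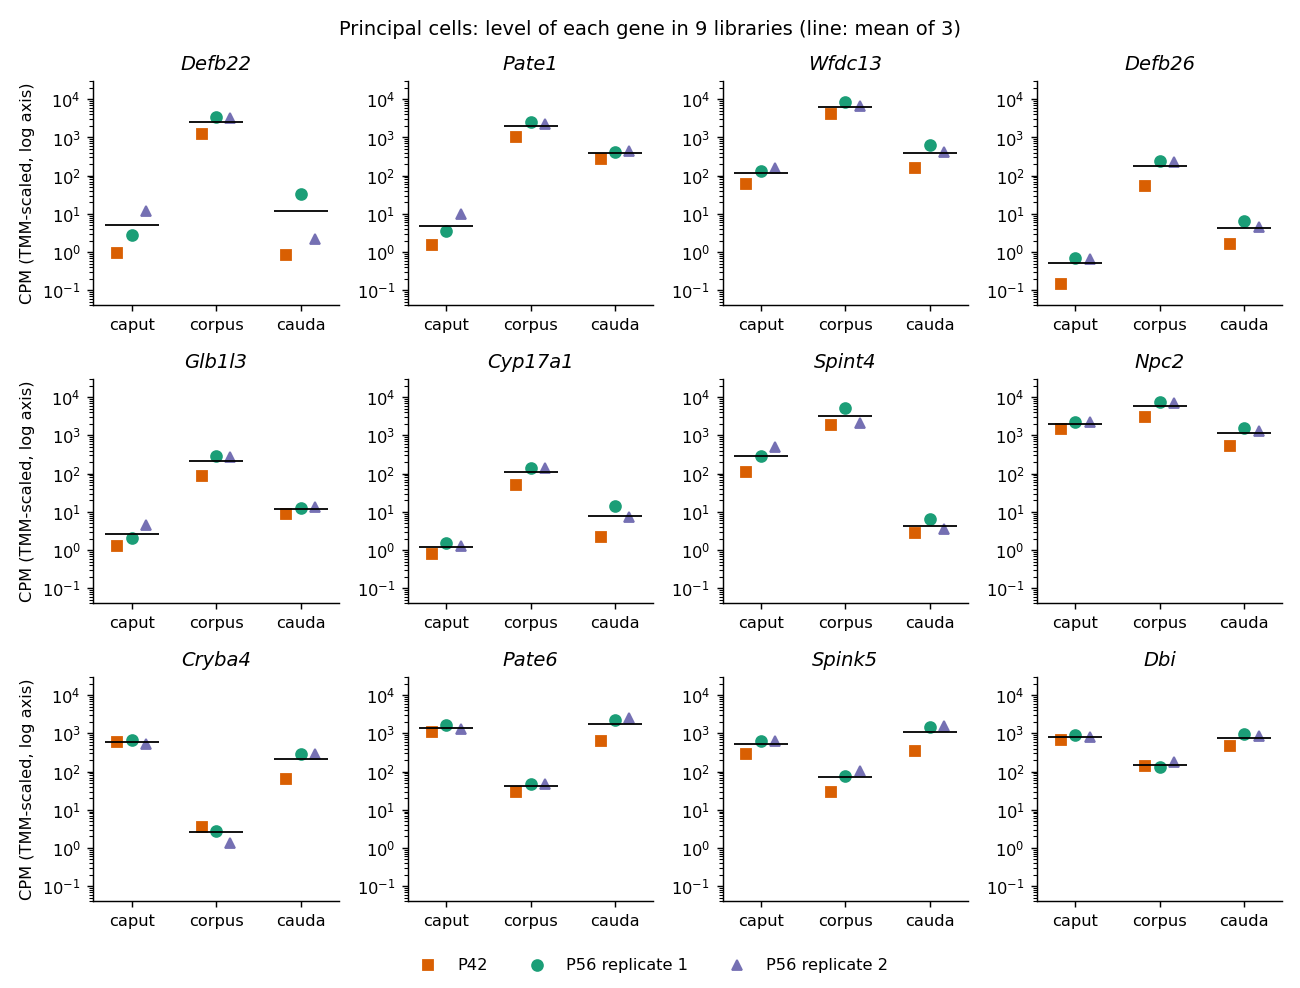
Level of 12 genes in principal cells of 9 libraries, as TMM-scaled CPM on a log axis, by segment, with symbols for the pools of mice and a line at the mean of 3 libraries. Defb22, Pate1 and Wfdc13 chose the corpus cells, Defb26 to Npc2 were higher in the corpus than in both other segments, and Cryba4 to Dbi were lower than in both, as for Cryba4 with 2.55 ± 1.1 CPM in the corpus.

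Against the caput, 1994 genes were higher in corpus principal cells (11.8% of those tested) and 1943 were lower (11.5%), and against the cauda 1458 were higher (8.6%) and 688 lower (4.06%). Genes higher than in both numbered 481 (2.84%) and genes lower than in both 190 (1.12%). These counts include genes that chose cells, 12 of those called against the caput, 14 of those called against the cauda, the 5 rule markers above both and 1 caput marker below both. When the corpus, caput and cauda cells were taken without any inclusion marker, 369 genes were higher than in both, of which 345 were among the 481. Likewise 128 were lower than in both, of which 114 were among the 190. That choice changed the P42 cauda most, from 509 to 2822 cells, while the corpus libraries went from 2466, 3659 and 3552 to 2618, 3806 and 3565. Among the genes described by segment below, Igkc, Sox9, Cldn14, Cd52, Wfdc15b, Sult1e1, Cth, Slpi, Defb18 and Gpx6 then lost the cauda call (adjusted p = 0.087, 0.0613, 0.064, 0.255, 0.302, 0.216, 0.146, 0.184, 0.0714 and 0.0812), and Iglc1, Adam7, Car2, Defb6 and Lcn12 the caput call (0.0791, 0.0771, 0.0805, 0.0961 and 0.0691). Globin genes called higher than in the cauda went from 4 to 0, and fibroblast genes called lower from 3 to 1. Without cells that carried 3 or more markers of another type, the counts were 678, sharing 435, and 321, sharing 168, but this left 760 cells in the P42 corpus and 4 cells with 5879 UMIs in the P42 cauda. Without the P42 cauda library, an alternative chosen after seeing the data, there were 4570 genes against the caput, 2810 against the cauda, 636 above both and 252 below both. The cauda call was then lost for 4 named genes, Dcn, Col1a2, Birc5 and Cth. Leaving out the first P56 pool reduced the counts to 1981 genes against the caput, 427 against the cauda, 125 above both and 31 below both. Leaving out the other P56 pool gave 786 against the cauda, 213 above both and 72 below both. Without the P42 pool 320 genes were below both.

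Of the genes higher than in both other segments, Defb26 showed the clearest separation. This beta-defensin had 52.9, 239.7 and 232 CPM in the corpus, 0.142, 0.703 and 0.671 in the caput and 1.66, 6.62 and 4.62 in the cauda. Defb26 differed by 8.41 ± 0.23 (adjusted p = 9.88e-07) and 5.35 ± 0.19 (adjusted p = 2.12e-05). Each corpus library was far above all other libraries. Cyp17a1, a cytochrome P450 of androgen synthesis, had 50.2, 138 and 141 CPM in the corpus, 0.782, 1.56 and 1.28 in the caput and 2.21, 14.3 and 7.48 in the cauda. Its differences were 6.50 ± 0.31 (adjusted p = 3.45e-06) and 3.84 ± 0.27 (adjusted p = 0.000142). Glb1l3, a beta-galactosidase-like protein, had 87.2, 284 and 276 CPM in the corpus, 1.28, 2.01 and 4.63 in the caput and 8.83, 12.8 and 13.01 in the cauda. Glb1l3 differed by 6.34 ± 0.35 (adjusted p = 6.53e-06) and 4.14 ± 0.32 (adjusted p = 0.000234). Neither Cyp17a1 nor Glb1l3 overlapped between segments. The predicted genes Gm34593, Gm34646, Gm10823 and Gm34531 were also higher than in both, with corpus means of 60.2 ± 19.2, 217 ± 84.2, 60.9 ± 29.3 and 55.7 ± 8.4 CPM (SD, n = 3) against caput means of 0.503 ± 0.504, 1.57 ± 1.1, 0.179 ± 0.31 and 1.2 ± 0.318. Igkc, the immunoglobulin kappa constant gene of plasma cells, met the same rule with 19.04, 49.4 and 125 CPM. Its calls were lost without P56 replicate 1 (adjusted p = 0.0558 and 0.158 against caput and cauda) and without P56 replicate 2 (0.0614 and 0.153). Iglc1, another immunoglobulin gene, was called against the caput with 1.21, 164 and 1.72 CPM, nearly all from 1 library. The Iglc1 call was lost without P56 replicate 1 (adjusted p = 0.275) or replicate 2 (0.0912).

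Genes lower than in both were led by Cryba4, a crystallin, with 3.55, 2.73 and 1.38 CPM in the corpus, 608, 651 and 543 in the caput and 62.7, 297 and 282 in the cauda. Its differences were -7.89 ± 0.67 (adjusted p = 5.99e-05) and -6.31 ± 0.65 (adjusted p = 0.000691). Pate6, a relative of the corpus marker Pate1, had 28.7, 47.98 and 47.1 CPM in the corpus, 1107, 1666 and 1309 in the caput and 646, 2301 and 2458 in the cauda. Pate6 differed by -5.09 ± 0.36 (adjusted p = 2.17e-05) and -5.32 ± 0.37 (adjusted p = 0.000138). In both genes every corpus library lay below all caput and cauda libraries. Spink5, a Kazal-type inhibitor, had 29.4, 78.05 and 103 CPM against 295, 646 and 633 in the caput and 349.5, 1465 and 1544 in the cauda, and Dbi, an acyl-CoA-binding protein, 138, 129 and 178 CPM against 660.5, 926 and 818 in the caput and 464, 962 and 857 in the cauda. Spink5 differed by -3.02 ± 0.25 (adjusted p = 5.19e-05) and -3.92 ± 0.26 (adjusted p = 0.000126), and Dbi by -2.42 ± 0.24 (adjusted p = 0.00015) and -2.30 ± 0.24 (adjusted p = 0.000783). Lrpap1, a receptor chaperone, differed by -1.83 ± 0.14 (adjusted p = 3.82e-05) and -2.21 ± 0.15 (adjusted p = 0.000126), with 26.9, 27.6 and 22.9 CPM in the corpus. The transcription factor Sox9 and the tight-junction gene Cldn14 were also lower than in both, with corpus levels of 25.8, 17.1 and 22.5 CPM for Sox9 and 9.82, 16.4 and 30.3 for Cldn14. Sox9 was no longer called against the caput (adjusted p = 0.136) or cauda (0.299) without P56 replicate 1, nor against the cauda without replicate 2 (0.205). Without P56 replicate 1 the cauda call of Cldn14 (0.0798) was lost too.

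Against the caput alone, the largest gains were in Ltf, which encodes the iron-binding protein lactotransferrin, with 206, 256 and 515 CPM against 0.925, 0.352 and 0.94 (log2 difference 8.75 ± 0.46, adjusted p = 4.86e-06), and in Cwh43, of lipid-anchor remodelling, with 209, 449 and 468 CPM against 0.711, 0.804 and 2.35 (8.26 ± 0.34, adjusted p = 1.72e-06). Npy, neuropeptide Y, had 1084, 3179 and 4088 CPM against 8.82, 12.8 and 15.8 (7.61 ± 0.42, adjusted p = 6.05e-06). These genes were also present in the cauda, where Ltf had 289.6, 641 and 655, Cwh43 218, 510.0 and 567 and Npy 475, 2187 and 2415 CPM, and none of them was called between corpus and cauda (adjusted p = 0.151, 0.691 and 0.132). Genes lower than in the caput included abundant caput secretions. Cst11, a cystatin, had 11.3, 10.6 and 2.92 CPM against 5859, 8685 and 7490.4 (-9.96 ± 0.64, adjusted p = 1.31e-05), and Clpsl2, a colipase-like protein, 2.34, 3.22 and 1.32 CPM against 1358, 3432 and 2399 (-10.03 ± 0.56, adjusted p = 6.51e-06). Against the cauda alone, BC048679 was higher, with 2157, 4963 and 4122 CPM against 5.25, 80.98 and 5.002 (7.63 ± 0.95, adjusted p = 0.00147). The matrix protease Mmp7 and the prostaglandin synthase Ptgs2 were among the lower genes, with corpus means of 8.8 ± 2.28 and 4.71 ± 4.38 CPM (SD, n = 3) against 167 ± 113 and 56.7 ± 22.9. The calls of Mmp7 and Ptgs2 were lost without P56 replicate 1 (adjusted p = 0.0798 and 0.0664).

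Beta-defensins, antimicrobial peptides that also coat sperm, divided sharply by segment. Over all genes 11.8% were higher and 11.5% lower than in the caput, 8.6% and 4.06% than in the cauda, and 2.84% above and 1.12% below both. Of 35 defensins tested, leaving out those that chose cells, 14 were higher and 18 lower than in the caput, 15 were higher and 7 lower than in the cauda, and 5 were above and 2 below both. The list's median difference was -1.23 against the caput and 1.20 against the cauda, where the medians of all genes were 0.02 and 0.06. Defb37 had 2097, 4665 and 3995 CPM in the corpus, 189.6, 246 and 229 in the caput and 419, 1302 and 972 in the cauda. Defb37 differed by 3.92 ± 0.29 (adjusted p = 2.68e-05) and 2.05 ± 0.27 (adjusted p = 0.00184). Defb39 was likewise above both, with 959, 2344 and 1628 CPM against 459, 839 and 944 in the caput and 191, 374 and 294 in the cauda (1.11 ± 0.20, adjusted p = 0.00343 and 2.49 ± 0.21, adjusted p = 0.000291), and its caput call was lost without P56 replicate 1 (adjusted p = 0.119) and without the block for the pool of mice (0.0861). Defb38 had 1423, 2826 and 2675 CPM against 4.98, 6.93 and 10.6 in the caput and 634, 1203 and 832 in the cauda (8.25 ± 0.32, adjusted p = 1.39e-06 and 1.35 ± 0.24, adjusted p = 0.00671). Its cauda call was lost without P56 replicate 1 (adjusted p = 0.094), without replicate 2 (0.0892) and without the pool block (0.0648). Defb23, the fifth of these, had 1279, 2629 and 1431 CPM against 171, 327 and 424 in the caput and 1.38, 10.8 and 2.001 in the cauda (2.48 ± 0.46, adjusted p = 0.00377 and 8.76 ± 0.62, adjusted p = 0.000158). The defensins below both were Defb18, with 5.21, 5.35 and 4.47 CPM against 1842, 2459 and 1247 in the caput and 5.8, 27.4 and 29.9 in the cauda, and Defb6, with 0.378, 0.273 and 2.12 CPM against 7.47, 2.76 and 2.95 in the caput and 14.9, 33.7 and 31.7 in the cauda. The Defb18 cauda call was also lost with thinned libraries (adjusted p = 0.0589) and without P56 replicate 1 (0.281) or replicate 2 (0.181). The Defb6 caput call was also lost with thinned libraries (adjusted p = 0.0544), with members free of excluded markers (0.0539), without the pool block (0.0601) and without the P42 pool (0.0536), and both Defb6 calls without P56 replicate 1 (0.141 and 0.0503). Defb20, abundant in the caput with 13556, 32412 and 23668 CPM, was at 97.03, 260.3 and 186 in the corpus and 37.5, 54.1 and 43.1 in the cauda. Defb20 differed by -7.02 ± 0.35 (adjusted p = 3.87e-06) and 1.92 ± 0.28 (adjusted p = 0.00299). No library overlapped another segment, and the cauda call was lost without P56 replicate 1 (adjusted p = 0.12) or replicate 2 (0.0925). Near-identical copies in these families can share reads, and how reads that map to several genes were counted is not given in the sources used here.

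**Figure D2:**
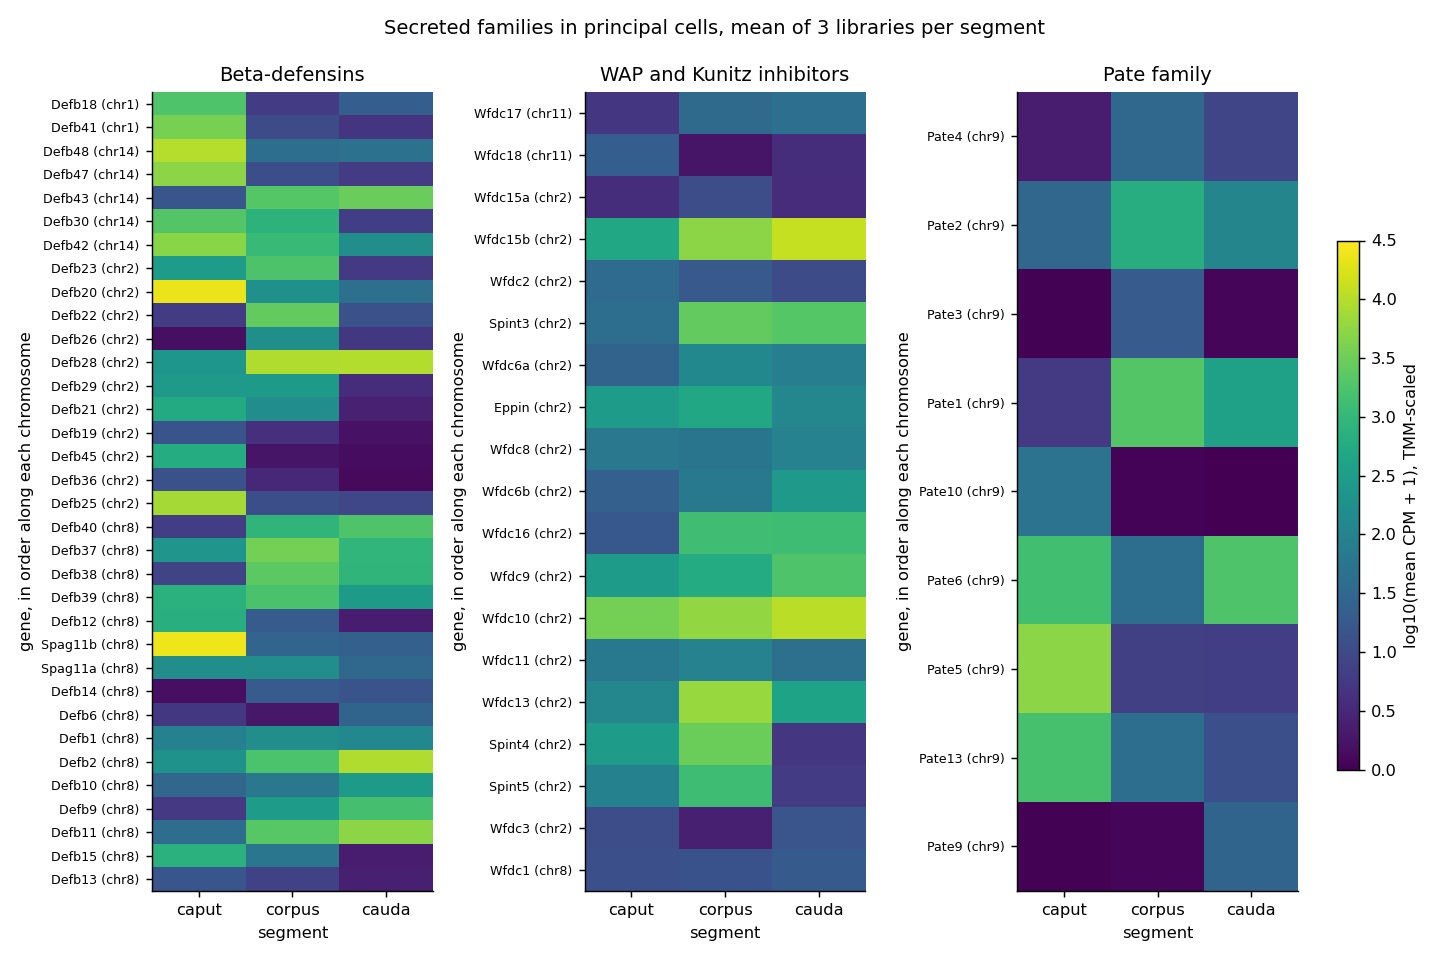
Mean level of secreted gene families in principal cells of the 3 segments, as log10 of mean TMM-scaled CPM plus 1 over 3 libraries, with genes in their order along each chromosome. Defensins that are bright in the corpus column alone, such as Defb22 and Defb26, lie beside others that are bright in the caput, such as Defb20, at 23212 ± 9436 CPM, and Wfdc13, Spint4 and Spint5 stand out among the inhibitors.

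WAP and Kunitz inhibitors are small secreted proteins that block serine proteases. Of 19 tested, 10 were higher and 2 lower than in the caput, 5 higher and 4 lower than in the cauda, and 3 were above and 1 below both, against 11.8%, 11.5%, 8.6%, 4.06%, 2.84% and 1.12% in the same order over all genes. The list's median was 1.40 against the caput and 0.05 against the cauda. Spint3 had 1111, 3319 and 3571 CPM against 29.2, 42.7 and 52.3 in the caput (5.83 ± 0.39, adjusted p = 1.54e-05), and 588, 2923 and 2779 in the cauda, from which it did not differ beyond the spread (adjusted p = 0.419). Spint4 had 1931, 5368 and 2137 CPM in the corpus, 107, 289 and 485 in the caput and 2.76, 6.34 and 3.53 in the cauda. Spint4 differed by 3.47 ± 0.44 (adjusted p = 0.000545) and 9.60 ± 0.58 (adjusted p = 0.000102). Its neighbour Spint5, which that list did not hold, had 986, 2009 and 829 CPM in the corpus, 31.2, 94.4 and 153 in the caput and 1.1, 13.4 and 1.05 in the cauda. Spint5 differed by 3.78 ± 0.75 (adjusted p = 0.00532) and 8.36 ± 0.92 (adjusted p = 0.000912). In Spint4 and Spint5 the first P56 library was the highest by far among the corpus libraries, and no corpus library overlapped another segment. These levels were uneven among members. In the 104, 384 and 107 members rich in the Spint4 genes, described below, Spint4 had 31822, 42509 and 39069 CPM unscaled. In the members low in both groups described there it had 799, 1000 and 548 CPM unscaled, so its differences do not describe most members. Wfdc15b rose along the duct, with 436, 509.5 and 508 CPM in the caput, 2923, 6199 and 6660.4 in the corpus and 5195, 16898 and 16356 in the cauda (3.31 ± 0.36, adjusted p = 0.000218 and -1.22 ± 0.33, adjusted p = 0.0379). That cauda call was lost without P56 replicate 1 (adjusted p = 0.372) or replicate 2 (0.256) and without the pool block (0.193). Besides Spint4, the genes above both were Slpi, a secretory leukocyte protease inhibitor, with 10.9, 4.86 and 3.27 CPM against 1.28, 1.86 and 0.537 in the caput and 2.48, 1.02 and 0.905 in the cauda, and Wfdc15a, with 6.88, 12.6 and 12.2 CPM against 1.14, 1.96 and 5.64 in the caput and 1.1, 4.02 and 3.05 in the cauda. Wfdc3 was below both, with 1.06, 1.26 and 2.29 CPM against 12.9, 10.5 and 8.73 in the caput and 7.18, 17.1 and 18.8 in the cauda. Slpi was highest at P42, and its caput call was lost without members carrying 3 markers of another type (adjusted p = 0.118). Its cauda call was lost without P56 replicate 1 (adjusted p = 0.0618) or replicate 2 (0.0613), as was that of Wfdc15a without replicate 1 (0.0617).

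Of 8 Pate genes tested besides Pate1, 3 were higher and 4 lower than in the caput, 3 higher and 2 lower than in the cauda, and 3 were above and 1 below both. The shares over all genes were 11.8% and 11.5%, 8.6% and 4.06%, and 2.84% and 1.12%. Pate2, Pate3 and Pate4 were above both. They took no part in the rule, but the cells were chosen in part on Pate1. Pate3 passed the filter on low counts only through its corpus level. Pate2 had 362, 746 and 766 CPM, 13.8, 28.04 and 46.3 in the caput and 42.2, 146 and 141 in the cauda. Pate2 differed by 4.49 ± 0.25 (adjusted p = 6.51e-06) and 2.62 ± 0.23 (adjusted p = 0.000343). Pate4 had 15.7, 38.7 and 37.5 CPM against 1.21, 0.955 and 1.48 in the caput and 6.35, 8.15 and 8.19 in the cauda (4.61 ± 0.30, adjusted p = 1.49e-05 and 1.98 ± 0.26, adjusted p = 0.00193). Pate3 was found at 11.5, 23.9 and 20.3 CPM in the corpus, and, from a handful of UMIs, at 0, 0.0502 and 0.134 in the caput and 0, 0.226 and 0.191 in the cauda. The Pate4 cauda call was lost without P56 replicate 1 (adjusted p = 0.0508). Pate13 had 12.8, 105 and 7.68 CPM in the corpus, where the first P56 library stood alone, against 615, 2071 and 1993 in the caput (-5.68 ± 0.72, adjusted p = 0.000541).

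Proteins that attach to sperm did not share 1 segment pattern. Of 6 tested, 3 were higher (Crisp1, Npc2 and Cd52) and 3 lower (Bsph1, Crisp4 and Adam7) than in the caput, 3 were higher and 1 lower than in the cauda, and 1 was above both (11.8%, 11.5%, 8.6%, 4.06% and 2.84% over all genes). That gene was Npc2, a secreted sterol-binding protein, with 3038, 7623 and 6872 CPM in the corpus, 1488, 2264 and 2187 in the caput and 517, 1564 and 1334 in the cauda (1.46 ± 0.25, adjusted p = 0.00288 and 2.39 ± 0.26, adjusted p = 0.00088). Its corpus libraries lay above all those of caput and cauda, although the caput call was lost without P56 replicate 1 (adjusted p = 0.0883), without replicate 2 (0.0694) and without the pool block (0.055). Crisp1 and Cd52 differed from the caput by 5.81 ± 0.33 (adjusted p = 6.68e-06) and 4.82 ± 0.33 (adjusted p = 1.87e-05). Crisp4, a relative of Crisp1, had the opposite slope, with 428, 785 and 810.2 CPM in the caput, 94.2, 333 and 338 in the corpus and 15.2, 83.4 and 72.7 in the cauda (-1.60 ± 0.28, adjusted p = 0.00312 and 2.21 ± 0.29, adjusted p = 0.00188). Neither Crisp4 call passed without the pool block (adjusted p = 0.159 and 0.0807). Cd52 was lower than in the cauda (-1.23 ± 0.29, adjusted p = 0.0221). The Cd52 call was lost without P56 replicate 1 (adjusted p = 0.373), without replicate 2 (0.272) and without the block for the pool of mice (0.366).

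Lipocalins, carriers of small lipids, and cystatins, inhibitors of cysteine proteases, were mostly far lower in the corpus than in the caput. Of 10 tested, 8 were lower and 1 higher than in the caput, 2 were higher and 1 lower than in the cauda (11.5%, 11.8%, 8.6% and 4.06% over all genes), and the list's median was -6.95 against the caput. Lcn8, which chose caput cells, had 20.03, 24.4 and 10.5 CPM in the corpus against 10253, 21537 and 19474. Lcn2, a siderophore-binding lipocalin, had 225, 167 and 145 CPM against 5812, 7929 and 7064 (-5.19 ± 0.64, adjusted p = 0.000459). Lcn12 was below both, with 73.2, 118 and 161 CPM against 268, 300.2 and 222 in the caput and 293, 600.3 and 652 in the cauda (-1.26 ± 0.28, adjusted p = 0.0096 and -2.12 ± 0.29, adjusted p = 0.0021). Its caput call was lost without inclusion markers (adjusted p = 0.0691) and without the P42 pool, where the log2 difference was -0.94, and both calls without P56 replicate 1 (0.123 and 0.0656). The exception was Ptgds, the lipocalin-type prostaglandin D synthase, with 1478, 4076 and 6807 CPM against 422, 695 and 626 in the caput (2.54 ± 0.43, adjusted p = 0.00239). Its cauda level was 2438, 14204 and 14431 CPM, and that difference did not pass the test (adjusted p = 0.0754).

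Glutathione enzymes split by isoform. Of 34 tested, 13 were higher and 7 lower than in the caput, 5 were higher and 3 lower than in the cauda, and 3 were above and 1 below both. Over all genes these shares were 11.8%, 11.5%, 8.6%, 4.06%, 2.84% and 1.12%. The peroxidase Gpx5, the leading caput isoform with 30901, 84565 and 70685 CPM, was at 109.9, 249 and 51.2 in the corpus (-8.83 ± 0.68, adjusted p = 3.49e-05), where Gpx3 was the leading isoform. Gpx6 was below both, with 0.605, 0.928 and 0.229 CPM against 28.9, 29.4 and 25.9 in the caput and 2.21, 5.32 and 4.72 in the cauda, a call that was lost against the cauda without inclusion markers (adjusted p = 0.0812). The transferase Gstm6 was above both, with 181, 382 and 359.9 CPM against 67.2, 102 and 106 in the caput and 27.9, 81.9 and 75.9 in the cauda (1.69 ± 0.20, adjusted p = 0.00035 and 2.36 ± 0.20, adjusted p = 0.000333), as were Gstm4, with 27.4, 35.5 and 31.9 CPM against 8.04, 8.29 and 6.78 in the caput and 11.04, 12.7 and 16.1 in the cauda, and Gstm3, a few UMIs at 1.21, 1.91 and 2.06 CPM. The cauda calls of Gstm4 (adjusted p = 0.105) and Gstm3 (0.273) were lost without P56 replicate 1, and that of Gstm3 also without replicate 2 (0.207). Gstm1 and Gstm7 were higher than in the caput by 2.17 ± 0.26 (adjusted p = 0.000388) and 2.12 ± 0.25 (adjusted p = 0.000382). Enzymes of serine and sulfur metabolism, a list that overlaps genes the study chose on these samples and is no independent evidence of its direction, were higher than in the caput in 11 of 14 and lower in 1, higher than in the cauda in 3 and lower in 1, and above both in 3. The most abundant of them were Psph, the last enzyme of serine synthesis, with 238, 569 and 566 CPM against 29.2, 38.4 and 47.5 in the caput (3.47 ± 0.26, adjusted p = 2.91e-05), and Mthfd2, of mitochondrial folate metabolism, with 167, 308 and 361 against 60.8, 80.6 and 78.4 (1.85 ± 0.22, adjusted p = 0.000361). Phgdh, the first enzyme of serine synthesis, had 75.1, 118 and 132 CPM against 13.8, 14.97 and 16.9 in the caput and 36.4, 46.01 and 50.3 in the cauda (2.80 ± 0.16, adjusted p = 7.34e-06 and 1.27 ± 0.15, adjusted p = 0.00136). Cth, which makes cysteine, had 94.8, 203 and 187 CPM against 22.3, 19.999 and 24.8 in the caput and 35.1, 101 and 108 in the cauda (2.74 ± 0.31, adjusted p = 0.000289 and 1.03 ± 0.29, adjusted p = 0.0461). The cauda calls of Phgdh (adjusted p = 0.0652) and Cth (0.226) were lost without P56 replicate 1, and that of Cth also without replicate 2 (0.164), without the P42 pool, where the log2 difference was 0.87, and without the pool block (0.207).

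Among 14 genes of steroid metabolism and response, 5 were higher than in the caput, Srd5a2, a steroid 5-alpha-reductase, was lower, 3 were higher than in the cauda and none lower, and 2 above both. Over all genes 11.8% were higher and 11.5% lower than in the caput, 8.6% higher and 4.06% lower than in the cauda, and 2.84% above both, which is the background for this list and the next. Besides Cyp17a1, the estrogen sulfotransferase Sult1e1 was above both, with 232, 241 and 243 CPM against 16.7, 4.27 and 3.83 in the caput and 228, 55.2 and 28.6 in the cauda. In the cauda its P42 library came close to the corpus level, and the cauda call was lost without P56 replicate 1 (adjusted p = 0.343), without replicate 2 (0.293) and without the pool block (0.44). The aldo-keto reductase Akr1c19 was among the most abundant genes of the list, with 244, 485 and 489.7 CPM against 18.2, 17.3 and 17.4 in the caput (4.41 ± 0.36, adjusted p = 4.56e-05), and no corpus library overlapped the caput. Of 15 genes of ion and acid-base transport, 5 were higher and 4 lower than in the caput, 4 higher and 3 lower than in the cauda, and 2 above both, the cytosolic carbonic anhydrase Car2 with 195, 362 and 395 CPM against 110.2, 93.2 and 104 in the caput and 15.7, 98.6 and 84.9 in the cauda, and the sodium pump subunit Atp1b1 with 198, 320.0 and 289 CPM against 114, 71.8 and 89.98 in the caput and 33.1, 109.7 and 94.9 in the cauda. All 4 of their calls were lost without P56 replicate 1 (adjusted p = 0.197 and 0.0646 for Car2, 0.146 and 0.0761 for Atp1b1) and without replicate 2 (0.2, 0.0641, 0.127 and 0.0846).

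Mitochondrial transcripts took a median of 14.8%, 18.3% and 24.2% of the UMIs of a member, against 5.80%, 5.88% and 5.05% in caput and 12.7%, 16.0% and 13.4% in cauda principal cells. No corpus library overlapped the caput. The P42 corpus library overlapped the cauda range, although within each pool of mice the corpus was above the cauda. Corpus barcodes within the limits that did not meet the rule had medians of 13.0%, 20.4% and 22.4%. The corresponding cauda barcodes had 10.5%, 19.1% and 16.3%, and those of the caput 6.74%, 7.80% and 6.81%. A high share was thus not particular to the members. Of 9 mitochondrial mRNAs tested, 8 were higher than in the caput and none was called against the cauda, and both ribosomal RNAs were higher than in the caput. The mitochondrial mRNAs together took 4.46%, 4.64% and 5.19% of UMIs in the corpus and 3.55%, 3.14% and 3.40% in the cauda, without overlap. One of them, mt-Nd2, was called higher than in the cauda without inclusion markers (1.03 ± 0.25, adjusted p = 0.0458), without the P42 pool (1.05 ± 0.18, adjusted p = 0.00134), without the P42 cauda library (1.02 ± 0.21, adjusted p = 0.0112) and without cells carrying 3 markers of another type (1.39 ± 0.43, adjusted p = 0.0265). mt-Rnr2, the large ribosomal RNA, had 74202, 134050.0 and 189467 CPM against 29924, 42824 and 29474 (1.87 ± 0.44, adjusted p = 0.0116), a call that was lost without P56 replicate 1 (adjusted p = 0.158), without replicate 2 (0.258) and without the pool block (0.113). Of 75 nuclear genes of oxidative phosphorylation, 4 were higher than in the caput (Ndufb7, Cycs, Cox4i1 and Cox6c) and none lower, with a median of 0.22, against 11.8% higher and 11.5% lower over all genes. Against the cauda 1 was higher, where over all genes 8.6% were higher and 4.06% lower. Cox4i1, a subunit of cytochrome oxidase, had 2131, 3511 and 3635 CPM against 804, 899 and 889.9 (1.78 ± 0.24, adjusted p = 0.000791). The gene called against the cauda was Cycs, cytochrome c, with 371, 668 and 659 CPM against 162, 236 and 239.8 in the caput and 105, 280.3 and 276 in the cauda (1.38 ± 0.20, adjusted p = 0.00121 and 1.42 ± 0.20, adjusted p = 0.00277). That cauda call was lost without P56 replicate 1 (adjusted p = 0.0656) and without the pool block (0.0693).

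The members were not uniform, and the genes that varied most beyond counting noise in all 3 libraries described a few recurring groups. Correlations given next are of residuals across the cells of each library, averaged over the 3 libraries, and share each cell's depth and the free RNA of its library. Spint4 varied with Spint5 (0.91) and with the defensin Defb23 (0.80), while Defb30 varied with Spink11 (0.91), Lcn5 with Defb21 (0.87) and Lcn5 with Defb30 (0.85). Crisp1 varied with Cd52 (0.72) and ran slightly against Lcn5 (-0.27). Of the 20 most variable genes, mt-Rnr2, mt-Rnr1 and CT010467.1 were also among the 15 most abundant transcripts. Others are genes of other cells, with Sparc and Col1a2 (0.87) of stroma, Cd74 and H2-Aa (0.92) of antigen-presenting cells and Hba-a1 and Hba-a2 (0.98) of red cells.

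Cells in which Spint4, Spint5 and Defb23 together took at least 2% of UMIs, a level chosen after the values were seen, numbered 104, 384 and 107 (4.22%, 10.5% and 3.01% of members), and in single cells the share rose to 11.3%, 16.2% and 13.7%. Over all members the median share was 0.212%, 0.267% and 0.103%. Cells with at least 2% from Defb30, Spink11 and Epp13 and less from the Spint4 genes numbered 52, 230 and 23 (2.11%, 6.29% and 0.648%). Both sums passed 2% in 22, 133 and 28 cells. Between 1% and 4% lay 491 cells on the first scale and 721 on the second, so the groups are given as ranges of a measure, and whether they are cell types was not tested. Both groups were most frequent in the first P56 library. At least 3 of the 5 markers that chose caput cells, which include Lcn5 and Defb30, were found in 378 members, which made up 4.34%, 6.31% and 1.13% of the 3 libraries, in the same order as the Defb30-rich cells. The sum of these markers was 2106, 3395 and 734 CPM unscaled. The part of caput tissue or RNA in the Defb30-rich cells was not tested.

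In the Spint4-rich cells the marker Wfdc13 was at its highest, with medians of 74.1, 83.2 and 74.7 UMIs per 10000 against 39.5, 66.5 and 43.7 in cells low in both groups. Defb22 was lower there, with 3.67, 6.67 and 6.07 against 8.06, 26.6 and 19.6. The Defb30-rich cells were lower still in Defb22, with 2.18, 4.29 and 3.46, and carried the caput gene Lcn5, a retinoid-binding lipocalin, at 167, 222 and 224 UMIs per 10000 against 2.41, 2.11 and 0 in the cells low in both. They were also rich in Rnase9, a secreted ribonuclease-like protein, with 85.6, 123 and 109 against 5.71, 15.1 and 10.0, and in Clu, the chaperone clusterin, with 81.1, 75.9 and 68.5 against 4.03, 2.47 and 1.19. Crisp1 was lower in them, at 32.1, 47.4 and 60.3 against 66.7, 181 and 172. These values held the same order in each of the 3 libraries and, since the cells were chosen on their own transcripts, they carry no test. Median depths were 4187.5, 3716 and 5421 UMIs in the Spint4-rich cells, 4591.5, 3860.5 and 4558 in the Defb30-rich cells and 3016.5, 4767 and 4748.5 in the others.

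**Figure D3:**
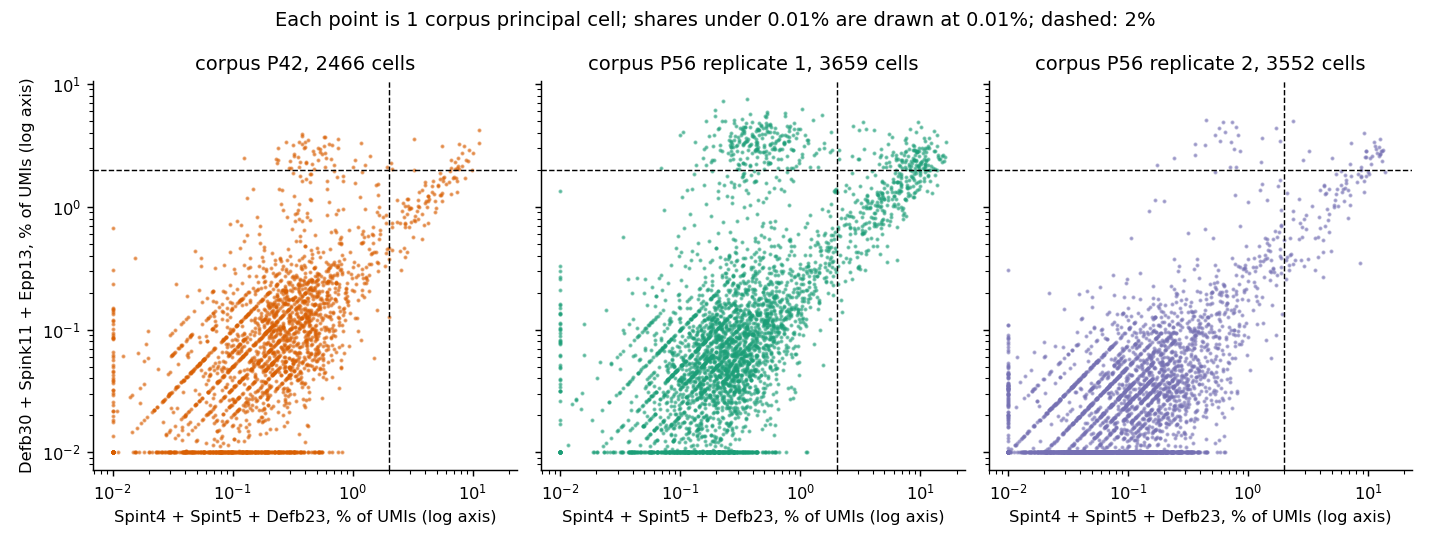
Each point is 1 corpus principal cell, placed by the share of its UMIs from Spint4, Spint5 and Defb23 and from Defb30, Spink11 and Epp13, on log axes, for each library, with dashed lines at 2%. A small set reaches past 2% on the horizontal axis (104, 384 and 107 cells) and another past 2% on the vertical axis only (52, 230 and 23), with cells scattered between them and the main body.

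Between ages, the P42 corpus library stood alone and was assumed to vary like the P56 libraries, so no replicate at P42 backs these values. Age also cannot be told apart from pool of mice. At P56, 380 genes were higher (2.24% of those tested) and 1304 lower (7.69%) than at P42. These counts include 7 genes that chose cells. With 1 of the P56 corpus libraries left out, replicate 1 or replicate 2, 922 and 362 genes were called, and 11 and 26 of the named age calls were lost. The lower genes were led by those of the stromal matrix, Col1a1 with 1132, 78.5 and 47.9 CPM (-4.16 ± 0.46, adjusted p = 0.00592), Col3a1 with 1019, 69.7 and 53.8 CPM (-4.04 ± 0.36, adjusted p = 0.00435) and Col1a2 with 1796, 146 and 99.04 CPM (-3.87 ± 0.41, adjusted p = 0.00557). All 4 tested fibroblast markers, all 3 of macrophages and all 3 of T and halo cells were lower at P56, along with Col5a2, Col6a1, Col6a2, Mfap2 and Mfap4. Members with 3 or more fibroblast markers made up 61.6% at P42 and 7.93% and 6.90% at P56. Without members that carried 3 or more markers of another type, 87 genes were higher and 173 lower, and 239 of these 260 were among the 1684. Col1a1 still differed by -2.50 in that comparison. It is itself a fibroblast marker that helped decide which cells were left out, so this value carries no test. That setting kept 760 of the 2466 P42 members. Without corpus P56 replicate 2 the calls of the macrophage genes Lyz2 and C1qb (adjusted p = 0.0579 and 0.055) and of the T-cell genes Ccl5 and Trbc2 (0.0598 and 0.071) were lost. What part other cells' RNA had in the remaining age differences was not tested.

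**Figure D4:**
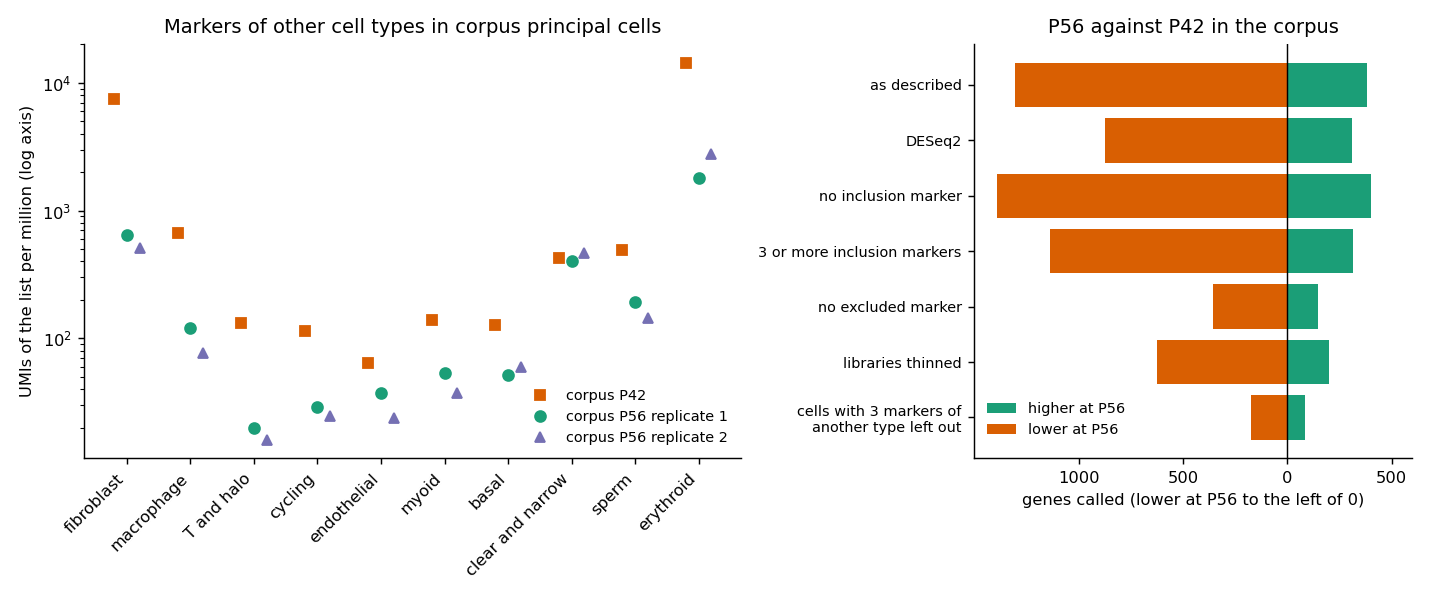
The left panel gives the CPM of each list of markers of other cell types in corpus principal cells of the 3 libraries, on a log axis, without TMM scaling, and the right panel the number of genes called higher or lower at P56 than at P42 in the corpus under each way of choosing or counting. The fibroblast list stood at 7440 unscaled CPM at P42 and at 646 and 511 at P56, and the calls went from 380 higher and 1304 lower to 87 higher and 173 lower once cells with 3 markers of another type were left out.

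Secretory genes were among those higher at P56 after TMM scaling. The corpus factors were 1.293 at P42 and 0.906 and 0.846 at P56, which raises every gene at P56 relative to P42. No fit was run without them, and how many calls would remain was not tested. Of unscaled UMIs, with genes that chose cells included, the beta-defensins took 2.52%, 3.63% and 2.94%. The sperm-binding proteins took 2.57%, 5.11% and 5.04%, and the WAP and Kunitz inhibitors 1.94%, 3.06% and 2.498%. Of the sperm-binding proteins 5 of 6 were higher and none lower, of the WAP and Kunitz inhibitors 8 of 19 higher and 2 lower, and of the beta-defensins 7 of 35 higher and none lower. Over all genes 2.24% were higher and 7.69% lower. Crisp1 differed by 1.72 ± 0.27 (adjusted p = 0.0111), Cd52 by 1.504 ± 0.23 (adjusted p = 0.0106), Npc2 by 1.25 ± 0.19 (adjusted p = 0.011) and Adam7, a sperm-surface protein, by 1.42 ± 0.21 (adjusted p = 0.00967). None of these 4 passed without the cells that carried markers of another type (adjusted p = 0.0627, 0.08, 0.0726 and 0.0509). Their differences were then 1.37, 1.08, 0.92 and 1.02, and the list medians went from 1.46 to 1.05 for sperm-binding proteins, 0.96 to 0.56 for the inhibitors and 0.70 to 0.62 for the defensins. In that setting 1 sperm-binding protein, Crisp4, 1 inhibitor, Spint3, and 1 defensin were higher, and 1 inhibitor was lower. Over all 14879 genes tested there, 87 were higher and 173 lower. The defensin was Defb26, with 52.9, 239.7 and 232 CPM and a difference of 2.16 ± 0.20 (adjusted p = 0.00435), and it held without those cells (adjusted p = 0.0239), as did Npy, at 1084, 3179 and 4088 CPM (1.74 ± 0.24, adjusted p = 0.00863, and adjusted p = 0.039 without them).

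Genes of the endoplasmic reticulum's folding and export machinery were higher at P56 in 7 of 28 and lower in none, against 2.24% higher and 7.69% lower over all genes, with a median of 0.79 against 0.07 for all genes. These values rest on the same TMM scaling, and no fit was run without it. Hspa5, the main chaperone of that compartment, had 1465, 3199 and 3368 CPM (1.16 ± 0.18, adjusted p = 0.0105), and Sec61a1, the channel through which secreted proteins enter it, 9.37, 29.4 and 25.4 CPM (1.55 ± 0.19, adjusted p = 0.00703). The stress-response factor Ddit3 had 11.1, 39.5 and 35.8 CPM (1.76 ± 0.23, adjusted p = 0.00774) and Herpud1, of protein disposal, 67.3, 155 and 177 CPM (1.30 ± 0.20, adjusted p = 0.0108). In each of these 4 both P56 libraries lay above the P42 library, and the Herpud1 call was lost without corpus P56 replicate 2 (adjusted p = 0.0547). The most abundant chaperones after Hspa5 were Hsp90b1, with 979.6, 1883 and 1719 CPM, and Pdia6, with 459, 925 and 875 CPM, and their differences of 0.88 and 0.97 fell short of the threshold of size. Without cells carrying markers of another type 7 of the 28 again passed, where 87 of 14879 genes tested were higher, of which Hspa5, Sec61a1, Ddit3 and Herpud1 were 4 (adjusted p = 0.0364, 0.0304, 0.034 and 0.0242). Other genes higher at P56 included Chka, which starts phosphatidylcholine synthesis, with 13.5, 49.995 and 76.3 CPM (2.22 ± 0.29, adjusted p = 0.00779), Sertad1 with 25.4, 75.2 and 111 CPM (1.87 ± 0.25, adjusted p = 0.00812), Btg3 with 14.4, 66.9 and 81.3 CPM (2.36 ± 0.33, adjusted p = 0.00889), Fam221b with 11.2, 89.1 and 64.6 CPM (2.78 ± 0.38, adjusted p = 0.00843) and Ptgds (1.88 ± 0.32, adjusted p = 0.0151). Fam221b and Ptgds were not called without the cells carrying other markers (adjusted p = 0.0509 and 0.0617).

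Whether the age change in the corpus differed from the mean age change in caput and cauda was tested directly, and no gene was called (0%). The lowest adjusted p was 0.299 with edgeR, 1485 genes had an unadjusted p under 0.05, and DESeq2 called 33. That fit had no block for the pool, although the segments came from the same pools. With the block 3 genes were called higher, Ch25h (2.15 ± 0.22), Igkc (4.48 ± 0.47) and Mcl1 (1.81 ± 0.18), each with adjusted p = 0.0486 by edgeR, and they are named here after their values were seen. Each segment had 1 library at P42.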

How the data were processed

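Cells of the caput, corpus and cauda epididymis were profiled by single-cell RNA-seq on microwell chips in 9 libraries. The authors aligned reads to GRCm38.p6 with STAR 2.7.3a, collapsed molecular tags with UMI-tools and deposited 1 matrix of raw UMI counts of 32195 genes in 44869 barcodes. All values were whole, and 0 columns of cells lacked a sample. How reads that map to several genes were counted is not given in the sources used here. The prefix of each column gave its segment and pool of mice.

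Members were chosen by the rule given in the results, and the members and gene lists were chosen with earlier results of these data known. UMIs were summed per library (10255246, 20259248 and 20662072 in the corpus) and tested with edgeR 4.0.16 (TMM, filterByExpr, quasi-likelihood) in R 4.3.3, over 16958 genes, with Benjamini-Hochberg adjustment. Segment contrasts used all 9 libraries with the mouse pool as a blocking term, as the same pools gave all segments. Same-pool libraries deviated together in 9 of 9 pairs (correlation 0.292 to 0.710), and libraries of different pools in 6 of 18. Those 6 were all pairs between the 2 P56 pools (0.214 to 0.501). Age was not removed from these deviations, so they cannot separate pool from age. The age contrast used means per segment and age, with 3 residual degrees of freedom. All 3 come from the same 2 P56 pools, each seen once per segment, so they are not independent. The pool block removes shifts shared by a pool. P-values of the segment contrasts thus measure how segment differences vary from pool to pool, with library noise. Those of the age contrast measure the spread between the 2 P56 pools.

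In each contrast the 8 called genes in each direction with the largest fold were named, if they moved the same way in every pool and had a mean of at least 50 CPM, with up to 4 members of each list by level, the 15 highest and the 20 most variable genes. A few genes that this rule names are not reported here. Alternatives were DESeq2 1.42.0, no filter on low counts, no pool block, other choices of cells, thinned libraries or cells, mitochondrial genes left out, and each pool left out. Leaving out members with 3 markers of another type, single P56 libraries in the age contrast and the P42 cauda library were added after seeing the data. On simulated counts of 16958 genes with 200 changed by a log2 fold of 2, the segment contrast with the caput called 150 of 200 and 7 unchanged genes, and the age contrast 84 and 6. Each simulated library was drawn independently, with no shift shared by a pool and with the spread of the segment fit for both contrasts. The unchanged genes called there thus do not measure the false calls in the real data. Thinning and drawing used fixed seeds with Python 3.11.15, numpy 2.4.6, scipy 1.17.1 and pandas 2.3.3.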

Additional observations from a re-analysis of the deposited data

How the results depend on the processing

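Counts of called genes depended on which pools and cells entered. Leaving out 1 pool in turn gave 1981 to 4840 genes against the caput, 427 to 3117 against the cauda, 125 to 674 above both and 31 to 320 below both, the lowest without the first P56 pool and the highest without the P42 pool. With libraries thinned to equal total UMIs, though not to equal numbers of cells, the counts were 2203 against the caput, 839 against the cauda, 236 above both, 95 below both and 827 between ages. Without the replicate block for the pool of mice they were 1308 against the cauda and 125 below both. Without members carrying 3 markers of another type, an alternative chosen after seeing the data, 321 genes were below both and 260 differed between ages, where members free of excluded markers gave 506. The difference of age changes between corpus and other segments gave 33 genes with DESeq2, 215 without a filter on low counts and 3 with the replicate block. The causes were not tested. Leaving out a whole P56 pool left the age contrast no residual degrees of freedom, so it gave values without a test. Leaving out 1 P56 library of any segment, chosen after seeing the data, gave 362 to 1993 genes between ages, the lowest without the second P56 corpus library, and 0 genes in the difference of age changes. Immediate-early genes took 0.667% of UMIs without members carrying other markers. The share of corpus barcodes that met the rule was 48.3%, 73.3% and 77.9% with 3 rule markers required, 12.8%, 31.3% and 27.3% with no excluded gene, 16.7%, 61.1% and 63.4% without members carrying other markers, and 62.2%, 83.5% and 88.3% after thinning to 1000 UMIs. Over 228 gene values and 3406 alternatives, 3055 kept their call or, where no test could be run, their size over the threshold. Of the rest, 345 lost the call, 6 without a test moved under the threshold of size and 0 reversed. Genes that an alternative filtered out were not counted. The pool block alone also decided the cauda call of Igkc (adjusted p = 0.0546 without it) and the caput calls of Car2 (0.0653) and Wfdc15a (0.0511). No alternative moved the median caput, cauda or age difference of all genes by more than 0.1 on the log2 scale. All of them used scaled libraries.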

Other observations

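Of 24 tested Hox genes, which mark position along the body axis, 12 were lower and 2 higher than in the caput, 3 lower and 2 higher than in the cauda, and the median difference from the caput was -1.20. Over all genes 11.5% were lower and 11.8% higher than in the caput and 4.06% and 8.6% than in the cauda. Hoxb7 had 101, 164 and 155 CPM in the corpus, 279, 471 and 442 in the caput and 91.4, 226 and 256 in the cauda (-1.50 ± 0.20, adjusted p = 0.000698 against the caput). Hoxb8 had 46.4, 39.6 and 38.6 CPM against 93.5, 102 and 96.8 in the caput (-1.23 ± 0.15, adjusted p = 0.000501), again without overlap between these segments. Of the Hox genes, 8 were lower at P56 (7.69% over all genes). Once members with 3 markers of another type were left out, none of the 22 then tested was called. This lay near the share over all genes in that setting, where 173 of 14879 were lower. Among 14 epithelial transcription factors 1 was higher and 3 lower than in the caput, and 1 higher and 1 lower than in the cauda, against the same shares over all genes. The factor higher than in the cauda was Pax8, of Wolffian duct derivatives, with 53.9, 65.1 and 59.4 CPM against 27.1, 25.4 and 21.6 (1.28 ± 0.17, adjusted p = 0.00191), a call lost without P56 replicate 1 (adjusted p = 0.0647).

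Immediate-early genes, which respond within minutes to stimulation and to cell dissociation, were higher than in the caput in 11 of 19 and lower in none, and lower than in the cauda in 3, against 11.8% higher and 11.5% lower than in the caput and 4.06% lower than in the cauda over all genes. Together they took 0.968%, 0.738% and 0.742% of UMIs in the corpus, 0.917%, 0.213% and 0.198% in the caput and 1.47%, 0.942% and 0.956% in the cauda. Corpus and caput thus lay close together at P42 and apart at P56. Fos had 1727, 1836 and 1796 CPM in the corpus and 1531, 378 and 253 in the caput (1.69 ± 0.49, adjusted p = 0.0292), and the call was lost without P56 replicate 1 (adjusted p = 0.251), without replicate 2 (0.234) and without the pool block (0.157). Of 16 genes of lipid handling, 3 were higher than in the caput, against 11.8% over all genes, among them Scp2, a sterol carrier, with 444, 731 and 805 CPM against 160.3, 168 and 178 (1.91 ± 0.22, adjusted p = 0.000292).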
